A study of Bos taurus with 6 samples.

Results

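The genes that write, read and erase N6-methyladenosine (m6A), a methyl mark on adenosines inside messenger RNA, were followed in single bovine morulae with and without inhibition of MAT2A, the enzyme that supplies the methyl donor. The set held 10 genes taken by their role: METTL3, METTL14 and WTAP as writers, YTHDF1, YTHDF2, YTHDF3, YTHDC1 and YTHDC2 as readers, and FTO and ALKBH5 as erasers. All 10 were found by symbol in the 6 expression tables, out of 13185 symbols with a usable value in every library, and all 10 were among the 7319 genes tested. The rule that picks them uses symbols and no measured value, but the set was chosen with earlier results of these data known.

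Embryos were produced by in vitro fertilization (IVF) and grown in mSOF medium with bovine serum albumin under 5% oxygen until day 6. From 72 h after insemination (day 3), when they had 8 to 16 cells, until 144 h, controls were kept in 0.1% DMSO, the vehicle, and MAT2A-inhibited embryos in 20 µM FIDAS-5. Whether the inhibited group also held DMSO is not stated. Each group held 3 libraries, each made from polyA RNA of 1 whole morula with a full-length kit for low input, so fewer cells of a type and less RNA per cell cannot be told apart. Nothing says that the embryos came from separate cultures, and p-values therefore cover only how far these 6 embryos vary, which may be technical.

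The mark is set by a complex in which METTL3 transfers the methyl group of S-adenosylmethionine, METTL14 holds the RNA and WTAP brings the pair to nuclear speckles. Reader proteins share the YTH domain, which binds the methylated base. YTHDF readers act in the cytoplasm, where YTHDF2 recruits deadenylation to shorten transcript life, and the nuclear YTHDC1 acts in splicing and export. FTO and ALKBH5 are oxygenases that use iron and 2-oxoglutarate to remove the methyl group. In early embryos the pathway is known for its part in clearing maternal transcripts and, through METTL3 and YTHDC1, in silencing retrotransposons. The libraries measure transcripts, and m6A itself was not measured.

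No m6A gene passed the test between groups. The log2 fold change, MAT2A-inhibited minus control on log2(FPKM + 1), was above 0 for all 10 genes, against 54.2% of all tested genes. Its median was 0.22 over the 10 genes and 0.045 over all tested genes. FTO had the highest of the 10 values, at 0.76, followed by YTHDC1 at 0.48, and YTHDF3 the lowest, at 0.028. With limma and Benjamini-Hochberg adjustment over all tested genes, adjusted p ran from 0.77 to 0.983 over the 10 genes. Over all tested genes 0.0410% were called, which is 3 of 7319, and 6.64% had an unadjusted p under 0.05, where 0 of the 10 m6A genes did. The 3 MAT2A-inhibited values all lay above the 3 control values for YTHDC1 and ALKBH5, 2 of the 10 genes. Among all tested genes the groups did not overlap for 13.4%, with the inhibited group higher for 8.27% and lower for 5.18%. With 10 genes, 2 apart is near that background and is not read as a result about the set. The direction was not fixed for every gene: with median-of-ratios scaling, array weights or without MAT2A-inhibited morula 1, 8 of the 10 were above 0, and without MAT2A-inhibited morulae 2 and 3 the number was 7.

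**Figure D1:**
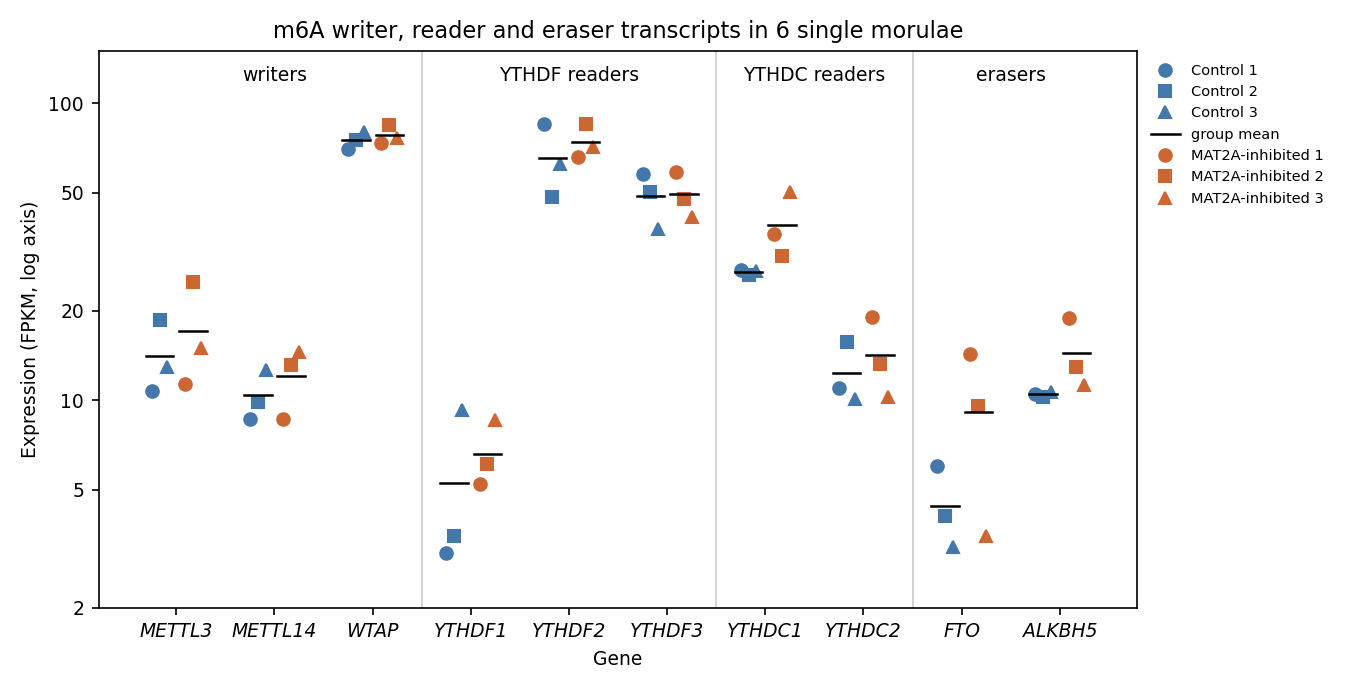
Expression of the 10 m6A genes in FPKM on a log axis, with blue points for the 3 control libraries, orange points for the 3 MAT2A-inhibited libraries and a black line for each group mean. WTAP and YTHDF2 reach the highest levels and YTHDF1 the lowest, and the groups are apart for YTHDC1 and ALKBH5.

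The depth recovered from the deposited values was 46400000 to 59900000 fragments per library, and FPKM of annotated genes summed to between 922067 and 975224. POU5F1, the pluripotency factor expected in a morula, was at 254.8 to 431.0 FPKM in every library. Early lineage genes differed between embryos of 1 group: the keratin KRT8 was at 4.49 FPKM in control 2 and 400.5 FPKM in control 3, and NANOG at 20.3 FPKM in control 2 and at most 4.58 FPKM elsewhere. Y-linked transcripts summed to 58.2 and 118.1 FPKM in MAT2A-inhibited morulae 2 and 3 and to at most 0.193 FPKM in the other 4 libraries. The summed cumulus cell markers were at 60.1 to 129.0 FPKM in controls and 43.5 to 82.9 FPKM in inhibited embryos, mostly from SERPINE2. Among the other cumulus markers, DCN reached 11.0 FPKM and LUM 4.81 FPKM in control 2, with at most 0.739 FPKM of either elsewhere. COL1A2 reached 4.29 FPKM in control 1 and 4.06 FPKM in control 3, with at most 1.06 FPKM elsewhere, STAR at most 2.19 FPKM, and VIM at most 0.501 FPKM and listed at 0 in 4 libraries. The summed sperm markers TNP1, TNP2 and PRM1 were at 2.53 to 4.79 FPKM in controls and 5.13 to 11.5 FPKM in inhibited embryos, with PRM1 listed at 0 in control 2 and MAT2A-inhibited morula 2. The blood markers summed to 63.1 to 132.0 and 81.9 to 110.0 FPKM, almost all from HBA, with HBB listed at 0 in 4 libraries. The part of these differences in the m6A values was not tested. Values given without the libraries with Y-linked transcripts set MAT2A-inhibited morula 1 alone against the controls. No control had Y-linked transcripts above 0.193 FPKM, so such values cannot tell Y-linked transcripts and treatment apart.

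In level, 4 genes stood above the other 6. FPKM is scaled by transcript length, and levels are set side by side between genes on that basis. The annotation and settings behind the lengths are not given, so the order is that of the deposited values. Over the 6 libraries the mean level was 76.5 FPKM for WTAP, 69.7 for YTHDF2, 48.9 for YTHDF3 and 33.0 for YTHDC1. The other 6 genes followed with mean levels of 15.6 FPKM for METTL3, 13.3 for YTHDC2, 12.4 for ALKBH5, 11.2 for METTL14, 6.77 for FTO and 5.94 for YTHDF1. Only between YTHDC1 and METTL3, a 2.11-fold step in mean level, did the ranges of neighbours not overlap, and YTHDC1 was above METTL3 in all 6 libraries. Every other pair of neighbours in this order overlapped in range, and ALKBH5 was above METTL14 in 3 of the 6 libraries. By mean level WTAP stood at percentile 81.3 of all tested genes and YTHDF1 at percentile 32.9.

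Among the writers, METTL3, the catalytic subunit, varied within each group. METTL3 (bosTau8 chromosome 10, 25716677 to 25731506) measured 10.7, 18.6 and 12.9 FPKM in control embryos 1 to 3, and 11.4, 25.0 and 15.0 FPKM in the MAT2A-inhibited embryos 1 to 3. The groups overlapped, with control 2 above 2 of the 3 inhibited embryos. Means were 14.1 ± 4.07 and 17.1 ± 7.09 FPKM (SD, n = 3 each), with a log2 fold change of 0.23 ± 0.36 (SE, limma adjusted p = 0.894). In the main fit, which does not pair embryos, the sign rested on 1 embryo. Without MAT2A-inhibited morula 2 the log2 fold change was -0.069, and without both libraries with Y-linked transcripts it was -0.26. By number, METTL3 was higher in each inhibited embryo than in the same-numbered control, but the labels do not say that numbers pair embryos.

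METTL14, the RNA-binding partner without catalytic activity (chromosome 6, 7797199 to 7837774), measured 8.62, 9.87 and 12.6 FPKM in the controls, against 8.67, 13.1 and 14.5 FPKM in the inhibited embryos. MAT2A-inhibited morula 1 lay at the level of the lowest control and the other inhibited embryos above the highest. The log2 fold change was 0.19 ± 0.30 (SE, limma adjusted p = 0.894), and it was -0.22 without the libraries with Y-linked transcripts. The ratio of METTL14 to METTL3 levels ran from 0.523 to 0.978, so METTL3 was the higher of the pair in each of the 6 libraries. In MAT2A-inhibited morula 2, where METTL3 was highest, the ratio was 0.523, and in control 2 it was 0.53.

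WTAP (chromosome 9, 97434236 to 97460620) was the most even of the 10 genes. Its level was 69.8, 75.0 and 80.0 FPKM in the controls, against 73.2, 84.5 and 76.5 FPKM in the inhibited embryos, a span of 1.21-fold over all 6 embryos. The SD within groups was 0.101 on the log2 scale, at percentile 1.38 of all tested genes. Its log2 fold change of 0.058 had a limma 95% interval from -0.38 to 0.50, the narrowest of the set. WTAP exceeded the mean of METTL3 and METTL14 between 4.43-fold and 7.31-fold.

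The cytoplasmic YTHDF readers were dominated by YTHDF2 and YTHDF3. YTHDF2 (chromosome 2, 125294135 to 125324268 in control 1), which shortens the life of bound transcripts, measured 85.4, 48.3 and 62.3 FPKM in the controls, against 65.9, 85.0 and 71.2 FPKM in the inhibited embryos. The controls alone spanned the whole range of the 6 embryos. YTHDF3 (chromosome 14, 29830349 to 29863766 in the inhibited embryos 2 and 3) measured 57.6, 50.1 and 37.8 FPKM in the controls, against 58.8, 47.6 and 41.4 FPKM in the inhibited embryos. Both groups ran over nearly the same levels. The log2 fold changes were 0.21 ± 0.26 for YTHDF2 and 0.028 ± 0.25 for YTHDF3 (SE, limma adjusted p = 0.859 and 0.983). Leaving out 1 library moved YTHDF2 from 0.0135 without control 2 to 0.42 without control 1, and YTHDF3 from -0.14 without control 3 to 0.16 without control 1.

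YTHDF1 (chromosome 13, 54805022 to 54817791), the paralog described as promoting translation, had the lowest mean level over the 6 libraries, while in the controls alone the mean of FTO was lower, at 4.42 against 5.27 FPKM. Its level was 3.07, 3.50 and 9.25 FPKM in the controls, against 5.21, 6.07 and 8.55 FPKM in the inhibited embryos. Control 3 held the highest value and the other controls the lowest, so the inhibited embryos lay inside the control range. Inhibited minus control, the log2 difference was 0.39 ± 0.42 (SE, limma adjusted p = 0.85), and leaving out 1 library moved it from 0.14 without control 1 to 0.81 without control 3. It was 0.21 without control 2 and 0.21 without MAT2A-inhibited morula 3, and no such fit called it. Of the summed YTHDF level, YTHDF2 made up 47.4% to 61.3%, YTHDF3 34.2% to 49.2% and YTHDF1 2.1% to 8.45%. Only in control 2 did YTHDF3 exceed YTHDF2, with a ratio of YTHDF2 to YTHDF3 of 0.965. The sum itself was 119.0 ± 23.6 FPKM in controls and 130.0 ± 8.75 FPKM in inhibited morulae (SD, n = 3 each).

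Of the YTHDC readers, YTHDC1 was nearly constant in controls and higher in each inhibited embryo. YTHDC1 (chromosome 6, 85839655 to 85877749 in controls 1 and 2), the nuclear reader of splicing and export, measured 27.3, 26.3 and 27.3 FPKM in the controls, against 36.3, 30.5 and 50.01 FPKM in the inhibited embryos. The lowest inhibited value was above the highest control. Means were 27.0 ± 0.553 and 38.9 ± 10.03 FPKM (SD, n = 3 each), or 1.44-fold, with an exact permutation p of 0.1, the smallest that 3 against 3 can give. On the log2 scale the groups differed by 0.48 ± 0.25 (SE), with 95% limits of -0.10 and 1.07 and a limma adjusted p of 0.77. It was 0.29 without MAT2A-inhibited morula 3 and 0.64 without MAT2A-inhibited morula 2.

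YTHDC2 (chromosome 10, 2361696 to 2434171), an RNA helicase known for its role at meiotic entry, measured 11.0, 15.7 and 10.1 FPKM in the controls, against 19.1, 13.3 and 10.2 FPKM in the inhibited embryos. The groups overlapped, with control 2 above 2 of the 3 inhibited embryos. The log2 fold change was 0.18 ± 0.32 (SE, limma adjusted p = 0.906), and without MAT2A-inhibited morula 1 it was -0.047. YTHDC1 exceeded YTHDC2 in every library, by 1.67-fold in control 2 to 4.88-fold in MAT2A-inhibited morula 3. Their sum was 37.4 to 42.1 FPKM in controls and 43.7 to 60.3 FPKM in inhibited morulae, with no overlap. YTHDC1, the larger part of the sum, was already apart alone, and the sum is not read as a further result.

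FTO had the widest range of the set, 4.46-fold from its lowest to its highest library. FTO (chromosome 18, 22118201 to 22541539), an eraser of m6A that also acts on cap-adjacent methylated adenosines, measured 5.99, 4.06 and 3.21 FPKM in the controls, against 14.3, 9.53 and 3.48 FPKM in the inhibited embryos. MAT2A-inhibited morulae 1 and 2 were above every control, and MAT2A-inhibited morula 3 lay between controls 2 and 3. Means were 4.42 ± 1.42 and 9.11 ± 5.44 FPKM (SD, n = 3 each), or 2.06-fold, with an exact permutation p of 0.3. The log2 fold change of 0.76 ± 0.48 (SE, limma adjusted p = 0.792) depended on single embryos. It was 0.37 without MAT2A-inhibited morula 1 and 1.26 without MAT2A-inhibited morula 3, and neither fit called it. Without both libraries with Y-linked transcripts, which leaves 1 inhibited embryo, it was 1.53. The limma 95% interval, from -0.37 to 1.89, was the widest of the set.

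The FTO locus spans 423339 bases, and the number of unannotated assembled loci inside it was 4, 20 and 7 in controls and 22, 5 and 8 in inhibited morulae. MAT2A-inhibited morula 1, with the highest FTO, held the most such loci, and control 2, with nearly as many, had 4.06 FPKM. Their part in the FTO values was not tested. The FTO value of MAT2A-inhibited morula 2 lay outside its own deposited confidence bounds, which ran from 6.37 to 8.74 FPKM. The same held for METTL3 and ALKBH5 in MAT2A-inhibited morula 3, 3 of the 60 values of the set in all.

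ALKBH5 (chromosome 19, 35024089 to 35041293), the other m6A eraser, measured 10.5, 10.3 and 10.7 FPKM in the controls, against 18.8, 13.0 and 11.3 FPKM in the inhibited embryos. The controls were close together and each inhibited embryo lay above them. Means were 10.5 ± 0.199 and 14.4 ± 3.97 FPKM (SD, n = 3 each), or 1.37-fold, with an exact permutation p of 0.1. The log2 fold change was 0.39 ± 0.28 (SE, limma adjusted p = 0.802), and without MAT2A-inhibited morula 1, the embryo highest for both erasers, it was 0.19. Without both libraries with Y-linked transcripts it was 0.79.

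**Figure D2:**
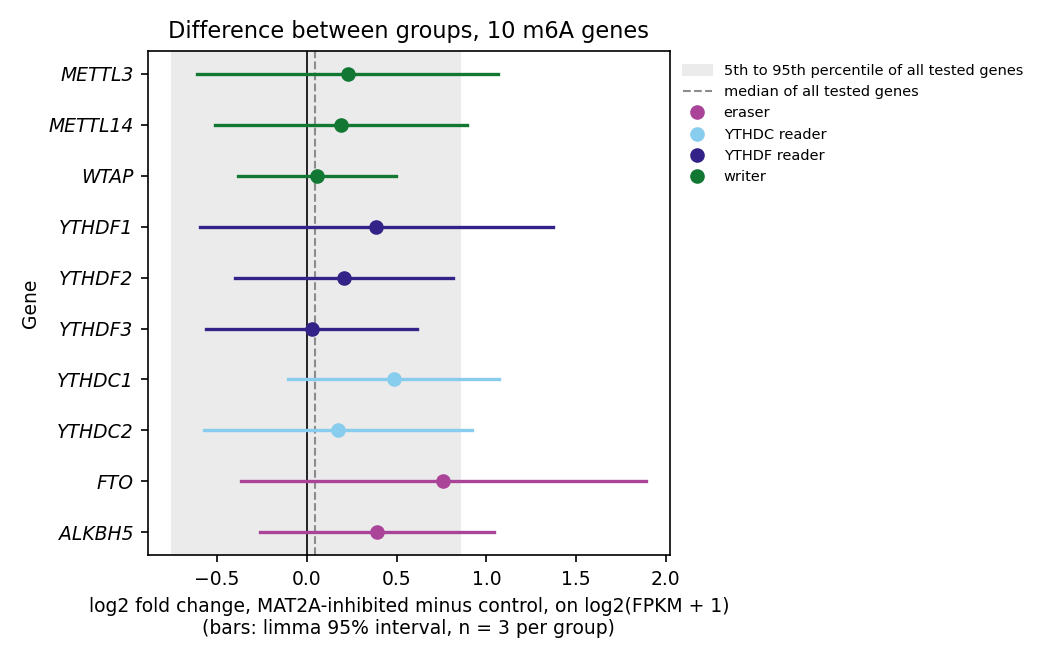
Log2 fold change of each m6A gene, MAT2A-inhibited minus control on log2(FPKM + 1), with its limma 95% interval and n = 3 per group. The grey band runs from -0.75 to 0.85, the 5th and 95th percentiles of all tested genes, all 10 points lie inside it, and every interval includes 0.

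Set against one another, the embryos differed in which m6A genes were high. MAT2A-inhibited morula 1 held the highest value of 4 genes, FTO, ALKBH5, YTHDC2 and YTHDF3, while its METTL3 and METTL14 were 0.26 and 0.22 below the control mean on the log2 scale. In MAT2A-inhibited morula 2 the highest values were those of METTL3 and WTAP. Of the 10 genes, 9 lay above the control mean in this embryo, against 53.6% of all tested genes. In MAT2A-inhibited morulae 1 and 3 the number was 7 each, against 54.8% and 52.3% of all tested genes. MAT2A-inhibited morula 3 had the highest METTL14 and YTHDC1, with FTO, YTHDC2 and YTHDF3 below the control mean. Control 1 held the lowest values of METTL3, METTL14, WTAP and YTHDF1, control 2 those of YTHDF2, YTHDC1 and ALKBH5, and control 3 the others. How often the lowest value is a control over all tested genes was not computed. The lowest values are therefore not read as a result about the set. Median differences from the control mean over the 10 genes were 0.21, 0.30 and 0.11 in inhibited morulae 1 to 3, against 0.060, 0.043 and 0.036 over all tested genes.

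**Figure D3:**
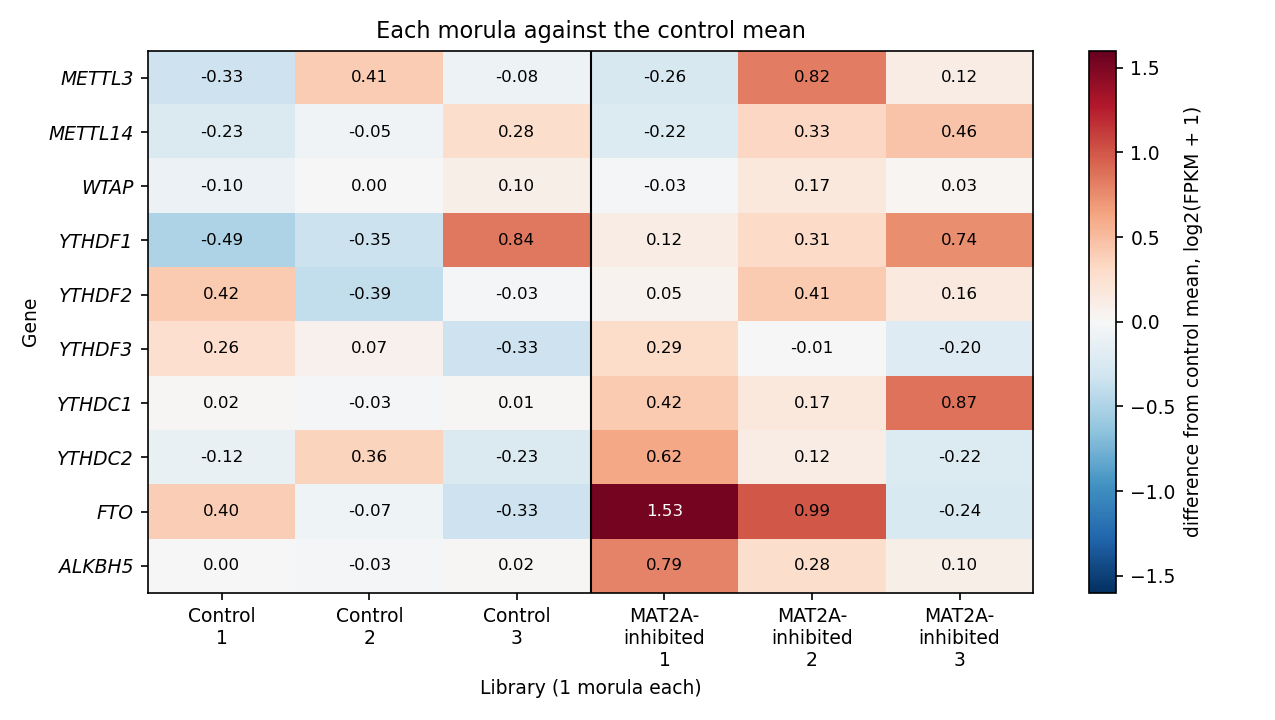
Difference of each library from the mean of the 3 controls on log2(FPKM + 1), for 10 genes in rows and 6 libraries in columns, with red above and blue below. FTO in MAT2A-inhibited morula 1, at 1.53, is the strongest difference, and each inhibited embryo is high in other genes.

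The balance between erasers and the METTL3-METTL14 pair also differed between embryos of 1 group. FTO and ALKBH5 summed to 16.5, 14.3 and 13.9 FPKM in the controls, against 33.2, 22.5 and 14.8 FPKM in the inhibited embryos. METTL3 and METTL14 summed to 19.4, 28.5 and 25.6 FPKM in the controls, against 20.0, 38.1 and 29.5 FPKM in the inhibited embryos. The eraser sum exceeded the writer pair only in MAT2A-inhibited morula 1, with a ratio of 1.66, against 0.503 to 0.852 in controls and 0.59 and 0.5 in the other inhibited embryos. Within the erasers, ALKBH5 was above FTO in all 6 libraries, by 1.31-fold to 3.32-fold.

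**Figure D4:**
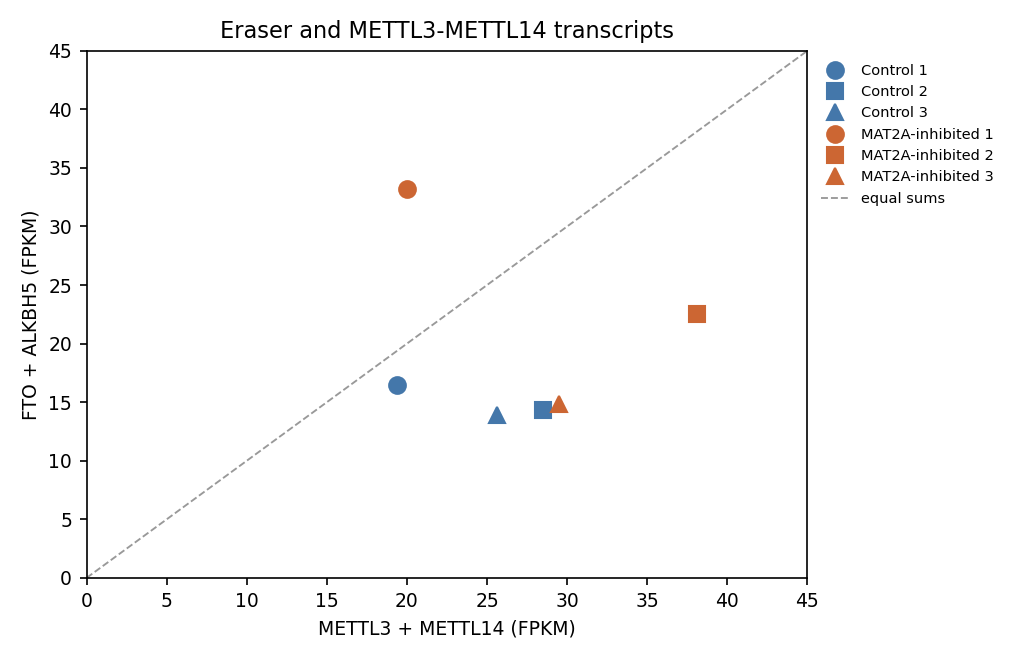
Summed FPKM of FTO and ALKBH5 against summed FPKM of METTL3 and METTL14, 1 point per library, blue for controls and orange for MAT2A-inhibited embryos, with a dashed line where the sums are equal. MAT2A-inhibited morula 1 is the 1 point above the line.

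Other genes of the pathway gave no call either. Of 11 further writer subunits and RNA adenine methyltransferases, 8 were tested, 3 with a log2 fold change above 0 and 5 below, and none passed (median -0.19). No row carries the symbols RBM15 or ZC3H13. The gene VIRMA, under its older name KIAA1429, the scaffold of the writer complex, measured 9.37, 4.99 and 9.14 FPKM in the controls, against 5.49, 5.93 and 5.48 FPKM in the inhibited embryos. RBM15B, which guides the complex to its RNA targets, was at 6.02, 4.66 and 6.17 FPKM against 6.95, 6.28 and 9.55 FPKM. The groups did not overlap for RBM15B and METTL4, 2 of the 8 tested, with the inhibited group higher. Over all tested genes the share of that kind was 8.27%, and the count is not read as a result about the list. The ring finger subunit CBLL1 was at 9.54, 22.9 and 11.6 FPKM against 9.39, 13.2 and 11.9 FPKM.

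METTL16, the methyltransferase that marks the MAT2A transcript and links its splicing to the methyl donor supply, measured 5.90, 11.7 and 7.07 FPKM in the controls, against 5.89, 7.64 and 6.27 FPKM in the inhibited embryos. MAT2A itself was at 74.8, 79.2 and 74.2 FPKM against 91.4, 53.2 and 70.5 FPKM. For METTL16, CBLL1 and ZCCHC4, a methyltransferase of ribosomal RNA, the highest value was that of control 2, the embryo with the lowest KRT8, and METTL3 was highest among the controls in the same embryo. The list went both ways there: of its 8 tested genes, 4 were highest in control 2, PCIF1 being the other, and 3 were lowest in it, KIAA1429, RBM15B and METTL4. Control 2 was also the embryo with DCN and LUM transcripts, whose part in these values was not tested. ZCCHC4 was at most 5.48 FPKM in the other controls and at 3.73 to 6.42 FPKM in inhibited morulae. METTL5 was listed at 0 in 5 libraries and at 150.1 FPKM in MAT2A-inhibited morula 3. It did not reach 1 FPKM in 3 libraries and was not tested. Such a 0 may stem from an estimate that failed.

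Of 14 other proteins described as m6A readers, 13 were tested, with 8 log2 fold changes above 0 and 5 below (median 0.16) and no call. SND1, an RNA-binding nuclease, measured 19.2, 12.1 and 23.1 FPKM in the controls, against 20.3, 33.6 and 33.9 FPKM in the inhibited embryos (limma adjusted p = 0.755). IGF2BP1, which stabilises bound messages, reached 140.1 FPKM in MAT2A-inhibited morula 1, the embryo with the highest FTO and ALKBH5, and was at 30.1 to 48.4 FPKM in the other 5 libraries. PRRC2A was at 17.1 FPKM in MAT2A-inhibited morula 2 and at most 1.57 FPKM elsewhere.

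Of 17 partners of the YTH proteins in export, splicing, decay and translation, 12 were tested, 3 with a log2 fold change above 0 and 9 below (median -0.13), and none was called. CNOT8, a deadenylase subunit of the CCR4-NOT complex that YTHDF2 recruits, measured 41.0, 42.6 and 40.7 FPKM in the controls, against 28.8, 33.0 and 31.6 FPKM in the inhibited embryos. Its groups did not overlap, and the limma adjusted p was 0.76. CNOT8 was the 1 such gene of the 12 tested, and over all tested genes the inhibited group lay apart and lower for 5.18%. CNOT2, a structural subunit of the same complex, was at 67.2, 80.1 and 68.5 FPKM against 57.3, 67.4 and 43.1 FPKM. The initiation factor subunit EIF3B was at 42.1, 33.4 and 32.8 FPKM against 39.8, 60.4 and 64.7 FPKM.

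In the AlkB family apart from FTO and ALKBH5, 6 of 7 genes were tested, 2 with a log2 fold change above 0 and 4 below (median -0.096), with no call. ALKBH1, the gene not tested, was listed at 24.4 FPKM in MAT2A-inhibited morula 3 and at 0 elsewhere. ALKBH8, which modifies transfer RNA, measured 3.31, 13.6 and 8.16 FPKM in the controls, against 12.4, 10.6 and 14.9 FPKM in the inhibited embryos. ALKBH7 and ALKBH4 had log2 fold changes of 0.23 and -0.17. Of 8 genes that supply S-adenosylmethionine or handle its product, 2 were above 0 and 6 below (median -0.22), and none was called. MAT2B, the regulatory partner of MAT2A, AHCY, which clears the product of methylation, and ADK had log2 fold changes of -0.29, 0.56 and -0.32.

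The genes whose profile over the 6 libraries came closest to METTL3 were TMEM120A, VCPKMT and OSTC. Their root mean square differences from METTL3, on log2(FPKM + 1) centred on each gene's mean, were 0.066, 0.0846 and 0.1, where METTL3 itself varied by 0.4. TMEM120A measured 2.97, 6.37 and 4.35 FPKM in the controls, against 3.71, 9.05 and 4.87 FPKM in the inhibited embryos. Since it was picked from all tested genes for this likeness, its peak in MAT2A-inhibited morula 2 is no separate result. For FTO the closest were KIAA0430, NOP2 and SLC25A22, at 0.207, 0.21 and 0.229, where FTO varied by 0.683. KIAA0430 measured 6.07, 3.97 and 4.98 FPKM in the controls, against 19.9, 10.4 and 4.57 FPKM in the inhibited embryos.

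The loci of the 10 genes shared little in position: YTHDC1 and METTL14 lie on chromosome 6 and METTL3 and YTHDC2 on chromosome 10, and the other 6 genes lie on 6 further autosomes. Each had 1 row in every library, none lay in a merged locus, and no other annotated row overlapped any of them. All 10 matched a protein-coding RefSeq gene of the assembly ARS-UCD2.0, with 1 to 21 RefSeq transcripts per gene. The deposited values are per gene, so transcripts of 1 gene were not told apart.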

How the data were processed

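The submitters' processing notes name bosTau8, Cufflinks 2.2.1 and TopHat2 2.0.14. For each morula the authors deposited gene-level FPKM with lower and upper bounds, per the file headers. Annotation and settings: not given in the sources used here. Rows of 1 symbol were summed, unannotated and merged rows left out, and 110 of 13295 symbols dropped for a merged locus or a status other than OK. Genes reaching 1 FPKM in 3 or more libraries entered limma 3.58.1 (R 4.3.3), fitted to log2(FPKM + 1), which understates the change of low genes, with a mean-variance trend, two-sided, Benjamini-Hochberg adjusted over all 7319 genes tested (threshold 0.05). Single values had an exact two-sided permutation test. The limma script was tested on simulated data. Depth came from unannotated loci of 100 to 300 bases, whose bounds step by whole fragments (tolerance 0.05). With 3 libraries a group, the spread between embryos limits precision. Genes were named as all 10 members, METTL16, KIAA1429, CBLL1 and MAT2A, up to 3 per related list with the smallest p, and the 3 closest profiles to METTL3 and to FTO. METTL5 and ALKBH1 did not reach 1 FPKM in 3 libraries and were not tested. METTL5, ALKBH1, METTL4 and PCIF1, like the lineage and cell markers, were named after values were seen. The members and lists were chosen with earlier results of these data known. Alternatives changed the scaling, pseudocount, filter, trend, weights, block, row choice or libraries.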

Additional observations from a re-analysis of the deposited data

How the results depend on the processing

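Under 18 alternatives no m6A gene was called, with limma adjusted p of 0.505 or more, and of 180 log2 fold changes 169 kept their sign. FTO, ALKBH5, YTHDC1 and YTHDF1 never changed sign. The alternatives in filter, trend, block or row choice, and the fit without genes listed at 0, left each m6A fold change at its main value. A sign could not change under them, and they count among the 169. Median-of-ratios scaling turned WTAP to -0.0002 and YTHDF3 to -0.030, and it moved the median over all tested genes from 0.045 to -0.0058. Array weights turned YTHDF2 to -0.0059 and YTHDF3 to -0.12. Without both libraries with Y-linked transcripts, a fit that leaves 1 inhibited embryo, METTL3 was at -0.26, METTL14 at -0.22 and WTAP at -0.030, while FTO was at 1.53, ALKBH5 at 0.79, YTHDC2 at 0.62, YTHDC1 at 0.42, YTHDF3 at 0.29, YTHDF1 at 0.12 and YTHDF2 at 0.051. Leaving out 1 library at a time gave METTL3 -0.069 to 0.47, YTHDC2 -0.047 to 0.37, YTHDF3 -0.14 to 0.16, YTHDF2 0.0135 to 0.42 and YTHDF1 0.14 to 0.81. The cause was not tested.

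Over all tested genes 3 were called. The count was 1 with no filter on low values, 1 with a mean of at least 5 FPKM, 5 with array weights, 0 without genes listed at 0 and 0 without the libraries with Y-linked transcripts. Leaving out 1 library gave 0 to 8, with 0 without any 1 of the inhibited morulae and 8 without control 3. With the replicate number as a block the count was 1, and the m6A genes had adjusted p of 0.625 or more. That fit gave an SE of 0.25 for METTL3 and 0.35 for FTO, against 0.36 and 0.48 in the main fit. For YTHDF2 and ALKBH5 the SE was slightly higher with the block, and for the other m6A genes lower. Same-numbered libraries correlated at 0.0456, 0.103 and 0.191 in their deviations from the group means, not all above 0.1. MAT2A-inhibited morulae 2 and 3 each correlated best with the control of the same number, but MAT2A-inhibited morula 1 with control 2 (0.102). The labels do not say that numbers pair embryos, and numbers were for that reason not taken as pairs in the main fit.

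Reads per gene are unknown here. Standard errors and intervals are those of limma, which draws the spread of each gene between embryos toward that of genes of like level. With 3 embryos per group the 95% intervals of the m6A genes reach from -0.61 to 1.89 on the log2 scale.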
